A study of Homo sapiens with 8 samples.

Results

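The 10 genes described here encode transcription factors of the primitive streak and the caudal end of the embryo, and they were followed through neural differentiation of human pluripotent stem cells under WNT3A. They were taken by gene name from the expression table: TBXT, NKX1-2, EVX1, CDX1, CDX2 and CDX4 as caudal progenitor factors, TBX6 and MSGN1 as presomitic mesoderm factors, and MIXL1 and EOMES as mesendoderm factors. All 10 were found, each as 1 row, among 35940 gene symbols. The cells were ESI017, a human embryonic stem cell line of wild-type genotype, and every library came from this 1 line. They were seeded at 30000 cells per cm2 in the stem cell medium mTeSR1 with ROCK inhibitor and then differentiated in N2B27, a serum-free neural medium, holding 10 µM of a compound named SB and 100 nM of one named LDN. Recombinant WNT3A protein at 300 ng/mL was added 34 h after the start. RNA was collected at 34, 42, 50 and 72 h, that is 0, 8, 16 and 38 h from the addition, from 2 libraries at each time point, named replicate 1 and replicate 2. The second replicate was an independent biological repeat, and its number also stands in the labels as the batch. The labels do not say whether the 34 h cells were collected just before or just after the addition. All groups carried SB and LDN. Every library after 34 h had WNT3A, so elapsed time and WNT3A cannot be told apart.

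In the embryo the primitive streak is the site where epiblast cells leave the epithelium to form mesoderm and endoderm. Beside its posterior end lie caudal progenitors, which include bipotent cells that give both spinal cord and paraxial mesoderm, and which depend on WNT and FGF signals. TBXT (brachyury) is the founding T-box factor of the streak and of these progenitors. The CDX genes encode homeobox factors that switch on HOX genes of the trunk and tail, and EVX1 and NKX1-2 encode homeobox factors of the posterior streak and of the caudal epiblast beside it. TBX6 and MSGN1 drive presomitic mesoderm fate, and TBX6 holds back the neural gene SOX2. MIXL1 and EOMES act earlier in the streak, in mesoderm and endoderm formation, and both respond to Nodal signalling.

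WNT signals reach genes through TCF/LEF factors, so the 250 bases before the annotated start of each gene were searched for 2 forms of their core, CTTTGA and CTTTGT, on both strands. The forms differ in their last base and cannot match at the same place. RefSeq windows on GRCh38.p14 were matched for 9 of the 10 genes, with 2 starts for TBXT; CDX1 was not matched. CTTTGA was present in the windows of 5 of the 9 genes, TBXT, CDX2, CDX4, MIXL1 and MSGN1, against 11.2% of 35116 windows of all genes, and CTTTGT in 0 of the 9, against 13.7%. The match lay 87 bases before the inner start of TBXT, 238 before CDX2, 219 before CDX4, 76 before MIXL1 and 85 before MSGN1. RefSeq and GENCODE starts differ: the windows of CDX2 and EOMES lie wholly within untranslated sequence of transcripts in GENCODE 29, so the CDX2 match lies inside an annotated transcript. The TBXT match and the TBXT stretch printed here lie between its outer and inner starts, within the annotated gene. A match is a description of the letters and not a measured binding site. Stretches outside annotated untranslated regions are printed for TBXT, EVX1 and NKX1-2, which rose after WNT3A, and for MSGN1, which was listed at 0 throughout. For CDX2, CDX4 and MIXL1 30 bases around the match are given. All are written 5′ to 3′ along the gene's strand, with the CTTTGA match in capitals; in TBXT it reads on the other strand.
TBXT, chr6:166167878-166168101, minus strand: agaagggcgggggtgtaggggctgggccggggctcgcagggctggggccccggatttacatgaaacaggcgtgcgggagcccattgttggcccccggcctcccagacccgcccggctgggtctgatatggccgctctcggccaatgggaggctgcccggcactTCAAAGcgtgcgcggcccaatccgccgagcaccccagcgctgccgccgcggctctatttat
EVX1, chr7:27242552-27242699, plus strand: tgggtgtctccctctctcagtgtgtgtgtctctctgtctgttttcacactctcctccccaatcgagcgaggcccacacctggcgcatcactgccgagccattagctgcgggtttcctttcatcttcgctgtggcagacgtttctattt
NKX1-2, chr10:124450185-124450285, minus strand: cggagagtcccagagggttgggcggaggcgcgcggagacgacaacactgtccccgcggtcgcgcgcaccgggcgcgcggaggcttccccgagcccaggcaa
MSGN1, chr2:17816210-17816459, plus strand: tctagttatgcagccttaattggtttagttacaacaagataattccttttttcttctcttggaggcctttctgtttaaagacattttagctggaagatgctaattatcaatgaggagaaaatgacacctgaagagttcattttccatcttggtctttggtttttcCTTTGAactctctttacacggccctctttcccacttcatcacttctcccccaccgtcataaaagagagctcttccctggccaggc
CDX2, chr13:27969536-27969565, minus strand: cttgatttcattCTTTGAacctgtgattgg
CDX4, chrX:73446822-73446851, plus strand: gtctctatctgaCTTTGAggggagctggtc
MIXL1, chr1:226223576-226223605, plus strand: ccccgagcccacCTTTGAtcgcaccgcccc

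Other motifs were each found in 1 or 2 of the 9 genes. The T-box core TCACAC was found in 1 of the 9 genes, EVX1, against 9.90% of all windows. The CDX-type letters TTTATG were found upstream of TBXT and MSGN1, against 9.64% of all windows, and TTTATT upstream of TBXT and CDX2, against 16.0%. The TATA box letters TATAAA were found upstream of TBXT and EOMES, against 10.7%. Genes that rose and genes that stayed low were thus found both with and without a CTTTGA match.

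Values are TPM, a transcript's share of a library per unit length, so that levels can be compared between genes. Changes are differences of log2(TPM + 1) ± SE, which understate the change of genes with low values. The number of reads is unknown, because TPM does not keep it, and a gene at 0 is called listed at 0. Each library held 13860 to 14004 genes at 1 TPM or more. Spearman correlations over the 14908 tested genes were 0.980 to 0.984 within a time point and 0.933 to 0.982 between time points. In bulk RNA a gene's fall to fewer transcripts per cell and a fall in the number of cells that express it cannot be told apart. All 6 pluripotent and epiblast markers checked and all 6 neural progenitor markers passed the filter. The first set summed to between 3296 and 3924 TPM over the 8 libraries, but its members went in both directions. Between 34 and 72 h POU5F1 (-1.64) and DNMT3B (-1.24) were lowered, and SOX2 (0.64) and PODXL (0.58) were raised, the last call being lost without replicate 2 at 34 h or either 72 h library (limma adjusted p 0.0770 to 0.117). The neural set summed to 381 to 400 TPM in the 34 h pair and 691 to 741 TPM by 72 h.

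A gene was tested where at least 2 of the 8 libraries reached 1 TPM. Of the 10 genes 7 passed: 5 of the 6 caudal factors, both mesendoderm factors and neither presomitic factor. EVX1, CDX1 and MIXL1 reached 1 TPM only in the 42 and 50 h libraries, and EOMES only in the 42 h libraries. CDX2 reached it in these 4 libraries and in 1 library at 72 h. These 5 were therefore tested because they were high there, and their direction was partly fixed by the filter, so that counts over the 7 tested genes describe them and support nothing. TBXT and NKX1-2 passed on their 34 and 72 h libraries as well. CDX4, TBX6 and MSGN1 were not tested.

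**Figure D1:**
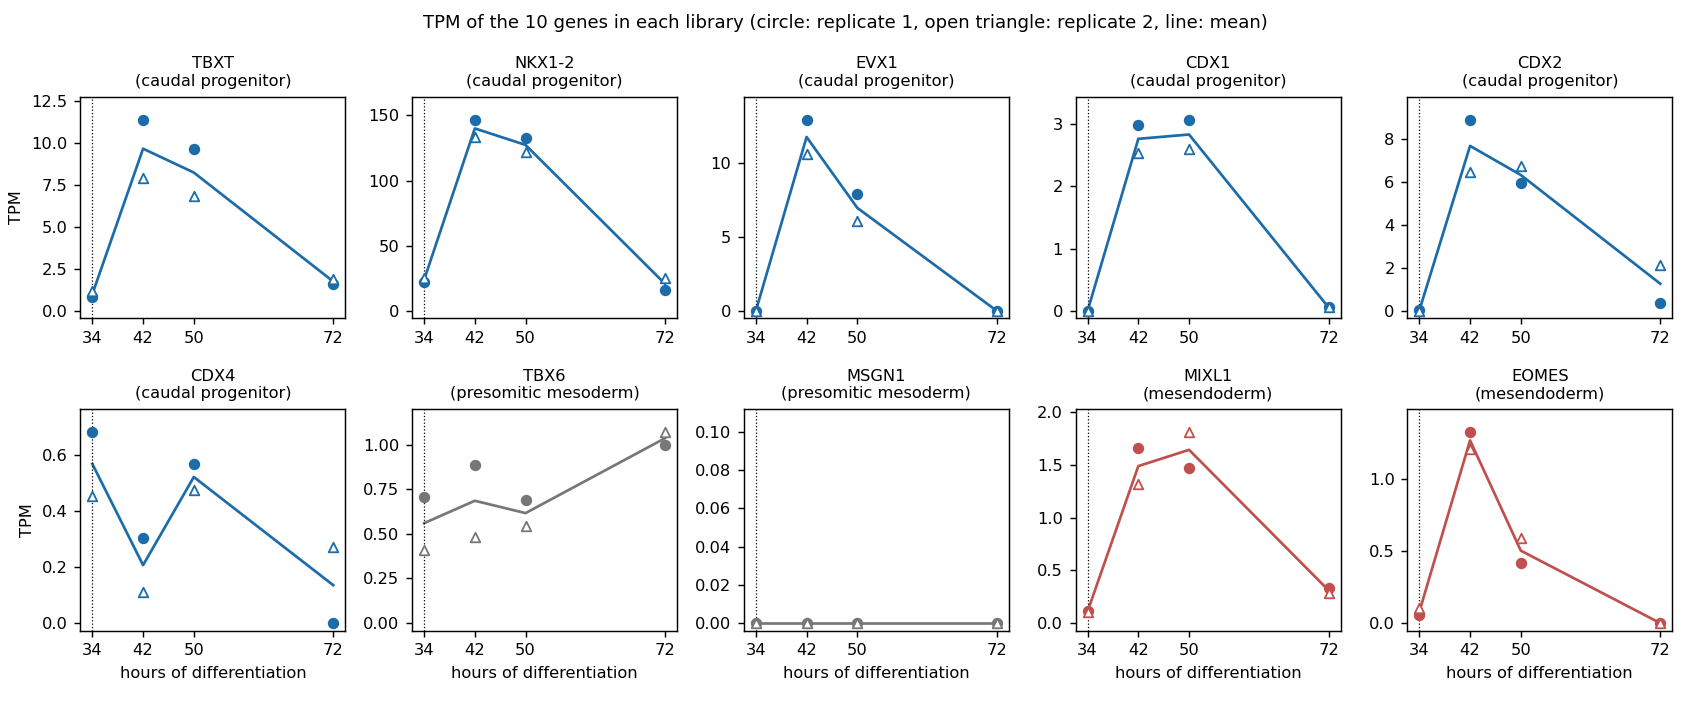
TPM of each of the 10 genes (vertical axis, own scale per panel, from 0) against hours of differentiation, with replicate 1 as filled circles, replicate 2 as open triangles, lines through the means of 2 libraries and a dotted line at the addition of WNT3A. TBXT, NKX1-2, EVX1, CDX1, CDX2, MIXL1 and EOMES are higher in all 4 of the 42 and 50 h libraries than in any 34 or 72 h library, while TBX6 and CDX4 stay near or below 1 TPM and MSGN1 is at 0.

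TBXT (ENSG00000164458, chromosome 6, 166157656 to 166168700, minus strand, GRCh38) had 0.831 and 1.16 TPM in replicates 1 and 2 at 34 h. Its level was 11.4 and 7.92 TPM 8 h after WNT3A, 9.62 and 6.83 TPM by 50 h, and 1.62 and 1.87 TPM in the last libraries. The lowest 42 or 50 h library was thus above every 34 and 72 h library, and replicate 1 was the higher of each pair at 42 and 50 h. The mean rose 9.71-fold in the first 8 h, which was 2.40 ± 0.24 in log2 units (limma adjusted p 0.00149), with 2.76 within replicate 1 and 2.05 within replicate 2. Between 50 and 72 h the log2 change was -1.73 ± 0.24 (limma adjusted p 0.00488), which left 14.2% and 23.6% of the 42 h level in replicates 1 and 2. This call was lost without replicate 1 at 72 h (adjusted p 0.0503; the alternatives spanned 0.00392 to 0.822). At 72 h both libraries lay above both 34 h libraries, but that difference, 0.46 ± 0.24, did not pass the threshold (limma adjusted p 0.202).

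NKX1-2 (ENSG00000229544, chromosome 10, 124445239 to 124450184, minus strand) had the highest level of the 10 genes at every time point, and it was the one factor well above 1 TPM at 34 h. Its values in replicates 1 and 2 were 22.4 and 25.3 TPM in the 34 h pair, 147 and 133 TPM at 42 h, 133 and 122 TPM by 50 h, and 15.9 and 25.6 TPM by 72 h. The 34 and 72 h libraries overlapped, and both groups were far below the 42 and 50 h libraries. The rise to 42 h was 5.88-fold, or 2.51 ± 0.19 in log2 units (limma adjusted p 0.000489), and the later fall was -2.60 ± 0.19 (limma adjusted p 0.000295). Both calls held under all 19 alternatives. The return to the starting level was uneven between the batches: from 34 to 72 h replicate 1 changed by -0.47 and replicate 2 by 0.02. Over both it was -0.23 ± 0.19 (limma adjusted p 0.439). It passed as a fall of 0.55 without replicate 2 at 72 h (adjusted p 0.0478) and was 0.10 without replicate 1 at 72 h. A non-coding gene, AL445237.1, overlaps 2897 bases of NKX1-2 on the other strand. Whether strand was used in quantification is not given in the sources used here.

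EVX1 (ENSG00000106038, chromosome 7, 27242700 to 27250493, plus strand) was listed above 0 in the middle libraries alone. All 34 and 72 h libraries listed it at 0; the 42 h pair gave 12.9 and 10.6 TPM and the 50 h pair 7.88 and 6.06 TPM. The 42 and 50 h libraries were apart from each other as well. Its rise of 3.67 ± 0.22 at 42 h ranked 7th and its fall of 2.98 between 50 and 72 h ranked 5th among the 14908 tested genes (limma adjusted p 0.000170 and 0.000266). At 50 h it stood at 60.9% and 57.2% of its 42 h level in replicates 1 and 2. That step of -0.68 ± 0.22 did not pass the threshold over all genes (limma adjusted p 0.393, unadjusted 0.0141). The antisense gene EVX1-AS overlaps 4530 bases of EVX1, so part of the reads could belong to it if strand was not used.

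Of the 3 CDX genes, CDX1 and CDX2 rose and CDX4 stayed below 1 TPM. CDX1 (ENSG00000113722, chromosome 5, 150166795 to 150184558, plus strand) started at 0 in both replicates, reached 2.98 and 2.53 TPM at 42 h and 3.07 and 2.59 TPM by 50 h, and returned to 0.0556 and 0.0564 TPM by 72 h. Within each replicate the 50 h level was 103% and 102% of the 42 h level, and the 72 h level was 1.86% and 2.23% of it. Its rise at 42 h was 1.91 ± 0.24 and its fall from 50 to 72 h was -1.86 ± 0.24 (limma adjusted p 0.00449 and 0.00316).

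CDX2 (ENSG00000165556, chromosome 13, 27962137 to 27971139, minus strand) was listed at 0.0395 and 0 TPM at 34 h. It reached 8.92 and 6.47 TPM by 42 h and 5.94 and 6.73 TPM by 50 h. At 72 h the replicates split, with 0.370 TPM in replicate 1 and 2.16 TPM in replicate 2. The 72 h level was 4.15% of the 42 h level in replicate 1 and 33.4% in replicate 2. The rise at 42 h was 3.08 ± 0.37 (limma adjusted p 0.00380). The fall from 50 to 72 h was -1.82 ± 0.37 (limma adjusted p 0.0236). That call was lost without replicate 1 at 72 h (adjusted p 0.0856) and without either 50 h library (0.0797 and 0.115). It was also lost with a pseudocount of 0.1 (0.0555), without the filter (0.0713) and in a fit of the 50 and 72 h libraries by themselves (0.105), and the adjusted p ranged from 0.00834 to 1 over the alternatives. Against 34 h, CDX2 at 72 h was 1.03 ± 0.37 higher without passing (adjusted p 0.0795). It passed without replicate 1 at 72 h (1.63, adjusted p 0.0120) and with a pseudocount of 0.1 (3.13, adjusted p 0.0128).

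CDX4 (ENSG00000131264, chromosome X, 73447254 to 73455245, plus strand) stayed below 1 TPM in all 8 libraries, from 0.681 and 0.453 TPM in the 34 h pair to 0.302 and 0.112 TPM by 42 h, 0.566 and 0.476 TPM by 50 h, and 0 and 0.270 TPM by 72 h. Its libraries were lower at 42 h than at 34 h, the opposite order to CDX1 and CDX2. Without the filter its changes were -0.38 at 42 h and -0.47 at 72 h against 34 h, and neither passed (limma adjusted p 0.442 and 0.105). Together the CDX genes held 0.721 and 0.453 TPM in the 34 h pair and 12.2 and 9.11 TPM by 42 h. CDX2 made up 73.1% and 71.0% of that sum at 42 h and 62.0% and 68.7% at 50 h.

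The presomitic mesoderm factors showed no such course. TBX6 (ENSG00000149922, chromosome 16, 30085793 to 30091887, minus strand) was at 0.708 and 0.411 TPM in the 34 h pair, at 0.888 and 0.483 TPM by 42 h, at 0.689 and 0.543 TPM by 50 h, and at 1.00 and 1.07 TPM by 72 h. Its 34, 42 and 50 h libraries overlapped, and both 72 h libraries were above all others. Without the filter the change from 34 to 72 h was 0.39 ± 0.17 and did not pass (limma adjusted p 0.207). MSGN1 (ENSG00000151379, chromosome 2, 17816496 to 17817101, plus strand) was listed at 0 in all 8 libraries.

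The mesendoderm factors were higher at 42 h than at 34 h, at levels far below those of NKX1-2. MIXL1 (ENSG00000185155, chromosome 1, 226223618 to 226227054, plus strand) went from 0.115 and 0.108 TPM in the 34 h pair to 1.66 and 1.32 TPM by 42 h, 1.47 and 1.81 TPM by 50 h, and 0.333 and 0.290 TPM by 72 h. The 42 and 50 h libraries overlapped each other and lay above the rest. At 42 h the log2 change was 1.16 ± 0.25 without passing (limma adjusted p 0.0552). It was 2.90 with a pseudocount of 0.1, which passed (adjusted p 0.0397), and it also passed without the filter (0.0183), without mitochondrial genes (0.0497) and without a mean trend in the variance (0.00699). At 50 h it was raised by 1.25 ± 0.25 over 34 h (limma adjusted p 0.0232), a call lost without any 1 of the 34 and 50 h libraries (0.0764 to 0.116) and with the compared time points alone (0.0646). The fall to 72 h, -1.01 ± 0.25, passed narrowly (limma adjusted p 0.0480). It was lost with the replicate block (0.0697), without any 1 of the 8 libraries (0.0691 to 0.182) and under 5 other alternatives, among them quantile normalization (0.0634).

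EOMES (ENSG00000163508, chromosome 3, 27715949 to 27722711, minus strand) went from 0.0551 and 0.104 TPM in the 34 h pair to 1.33 and 1.21 TPM by 42 h and 0.416 and 0.590 TPM by 50 h, and was listed at 0 in both of the last libraries. The 4 groups did not overlap, and the level at 50 h was 31.3% and 48.8% of that at 42 h in replicates 1 and 2. No pairwise comparison of EOMES passed in the main fit. From 50 to 72 h the change was -0.59 ± 0.26 (limma adjusted p 0.240). It stayed uncalled under 16 of 18 alternatives, and the lowest limma adjusted p among the 18 was 0.0316. The difference between 42 and 34 h was 1.07 ± 0.26 (limma adjusted p 0.0942), 1.14 in replicate 1 and 1.00 in replicate 2, and from 42 to 50 h it was -0.60 ± 0.26 (adjusted p 0.550). The 42 h change passed without the filter (0.00863) and without a mean trend in the variance (0.00639), the range over the alternatives being 0.00639 to 1.

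Ordered by TPM at 42 h, the genes ran NKX1-2, EVX1, TBXT, CDX2, CDX1, MIXL1, EOMES, TBX6, CDX4 and MSGN1. EVX1, TBXT and CDX2 overlapped their neighbours in this order, as did MIXL1 and EOMES, while the other neighbours were apart in both libraries. At 50 h TBXT, EVX1 and CDX2 again overlapped in sequence, with means of 8.23, 6.97 and 6.34 TPM, and EOMES had dropped below TBX6 and CDX4, whose libraries it overlapped. At 72 h NKX1-2 was still highest at 20.7 ± 6.84 TPM (SD, n = 2), followed by TBXT at 1.74 ± 0.174 TPM, CDX2 at 1.26 ± 1.27 TPM and TBX6 at 1.04 ± 0.0502 TPM. TBXT, CDX2 and TBX6 overlapped there through the spread of CDX2.

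Over the first 8 h 5 of the 7 tested genes were raised by limma at an adjusted p under 0.05, and 0 were lowered, against 1.78% of all tested genes raised and 0.792% lowered. They were TBXT, NKX1-2, EVX1, CDX1 and CDX2. The median log2 change was 2.40 for the 7 genes and 0.01 for all tested genes. All 5 tested caudal factors were called and neither of the 2 mesendoderm factors was. That difference between the groups was not tested, and the log2 scale used understates genes with low values. In mean TPM MIXL1 rose 13.3-fold and EOMES 16.0-fold, against 9.71-fold for TBXT and 5.88-fold for NKX1-2. CDX2 rose 390-fold from near 0, and EVX1 and CDX1 started at 0 and have no fold. At 50 h against 34 h 6 of the 7 were raised, the same 5 and MIXL1, against 3.52% of all tested genes, and 0 were lowered, against 2.74%. Where a change of more than 1 on the log2 scale was required (limma treat), NKX1-2 and EVX1 passed in both comparisons and the others did not. This comparison shares the 34 h libraries with the first.

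Between 42 and 50 h 0 of the 7 genes passed by limma, against 0.0939% of all tested genes, and 1, EVX1, had an unadjusted p under 0.05. Between 50 and 72 h 6 of the 7 were lowered, all but EOMES, and 0 were raised, against 4.41% of all tested genes lowered and 2.92% raised. The median change was -1.82 for the 7 genes and 0.01 for all tested genes. Without replicate 1 at 72 h 3 of the 7 were lowered, NKX1-2, EVX1 and CDX1, against 1.48% of all tested genes in that setting. At 72 h against 34 h 0 of the 7 passed by limma, where 24.0% of all tested genes did (12.7% raised and 11.3% lowered), and 1, CDX2, had an unadjusted p under 0.05. EVX1, CDX1, MIXL1 and EOMES had at most 0.333 TPM in the 34 and 72 h libraries and were tested through the other libraries. They could hardly pass here, so the count of 0 was partly fixed by the filter and says little. A missed threshold does not show that the 34 and 72 h levels were equal.

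The intervals 42 against 34 h and 72 against 50 h share no library, but the fit drew its estimate of spread from all libraries. Of the 7 genes 5 were raised in the first and lowered in the second, which 59 of the 14908 tested genes were, 0.396%. Of the 5, EVX1, CDX1 and CDX2 were tested because they were high at 42 and 50 h. Their rise and fall was thus partly fixed by the filter, and the count supports nothing. Of the 266 genes raised at 42 h, 22.2% were lowered between 50 and 72 h. In 1 contrast over all libraries, the mean of 42 and 50 h against the mean of 34 and 72 h, TBXT and NKX1-2 were raised, against 3.05% of all tested genes. The other 5 were raised too, after entering the test through their 42 and 50 h libraries. EVX1 ranked 2nd of 14908 by size there (3.33 ± 0.16), NKX1-2 8th (2.55 ± 0.14), CDX2 9th (2.45 ± 0.26) and TBXT 14th (2.07 ± 0.17). MIXL1 ranked 130th (1.08 ± 0.18, limma adjusted p 0.0136) and EOMES 250th (0.83 ± 0.19, limma adjusted p 0.0498). The MIXL1 call was lost without replicate 2 at 34 h (0.0536), replicate 1 at 42 h (0.0550) or replicate 1 at 72 h (0.0520). The EOMES call was lost with the replicate block (0.0785), without any 1 of the 8 libraries (0.0893 to 0.138) and under 4 other alternatives.

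**Figure D2:**
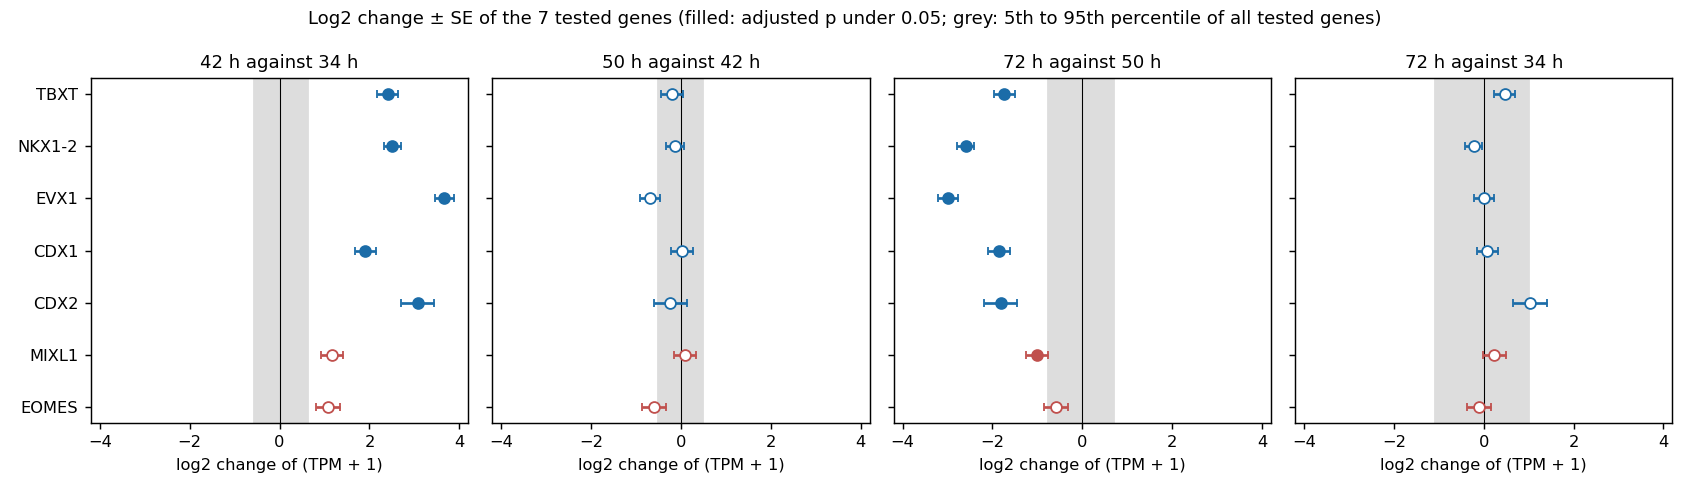
Log2 change of (TPM + 1) with its SE (horizontal axis) for the 7 tested genes in 4 comparisons, blue for caudal factors and red for mesendoderm factors, filled where the limma adjusted p was under 0.05, with the 5th to 95th percentile of all tested genes in grey. The 5 caudal factors lie between 1.91 and 3.67 at 42 h against 34 h, between -2.98 and -1.73 at 72 h against 50 h, and 0 of the 7 genes pass in the other 2 panels.

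Other genes of the caudal progenitor programme were followed from a list of 20, of which 17 were tested. At 42 h 5 of the 17 were raised and 1 lowered, against 1.78% and 0.792% of all tested genes. The median log2 change was 0.46, against 0.01 for all tested genes. SP5, 1 of the 5 raised at 42 h, reached 1 TPM in no 34 h library. The same holds for WNT8A and FGF3, which stand with SP5 among the genes raised at 72 h against 34 h. They entered the test through later libraries where they were high, so the filter partly fixed their direction in these counts. At 72 h against 34 h 9 were called raised and 2 lowered, WNT5A and SALL4, against 12.7% and 11.3% of all tested genes; 0 were lowered without replicate 1 at 34 h or replicate 1 at 72 h. Between 50 and 72 h 3 of the 17 were raised and 3 lowered, with a median change of 0.10, against 2.92% and 4.41% of all tested genes. Leaving out replicate 1 at 72 h gave 2 raised and 1 lowered, with SOX2, SP8 and WNT5A no longer called; 2 were raised without replicate 2 at 72 h, and 2 were lowered without any 1 of the 42 and 50 h libraries or replicate 2 at 72 h. SP5 and GBX2, a WNT target repressor and a hindbrain homeobox gene, rose by 7.12 ± 0.20 and 5.38 ± 0.16 at 42 h. Their changes from 50 to 72 h were 0.11 and 0.02 and did not pass (limma adjusted p 0.804 and 0.954). WNT5B and SP8, a WNT ligand and a zinc finger gene, rose at 42 h by 4.41 ± 0.21 and 2.40 ± 0.17 and changed between 50 and 72 h by -1.63 and -0.80 (limma adjusted p 0.00314 and 0.0287). The later SP8 call was lost without any 1 of 5 libraries, both of 42 h, both of 72 h and replicate 1 of 50 h (adjusted p 0.0508 to 0.153). At 72 h both still stood above 34 h, by 2.76 and 1.97 (limma adjusted p 6.519e-05 and 0.000150), where 0 of the 5 tested caudal factors passed. Of those, EVX1 was listed at 0 at both times and CDX1 had at most 0.0564 TPM, so they could hardly pass. WNT8A, a ligand of the posterior streak, rose by 1.95 from 42 to 50 h and by 2.24 from 50 to 72 h (limma adjusted p 0.0357 and 0.00113). The first of these calls was lost without any 1 of the 8 libraries (0.0781 to 0.295) and with the 42 and 50 h libraries fitted by themselves (0.279). CYP26A1, which clears retinoic acid from the tail bud, went the opposite way to the caudal factors, with -1.86 ± 0.31 at 42 h and 3.04 ± 0.31 from 50 to 72 h (limma adjusted p 0.0185 and 0.00113). The 42 h call was lost without either 34 h library or replicate 1 at 42 h (0.103 to 0.139). SOX2, which bipotent caudal cells hold together with TBXT, had a mean of 177 TPM at 42 h against 9.65 TPM of TBXT.

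Of 20 other streak and mesendoderm genes 11 were tested, and at 42 h 2 were raised, NODAL and LHX1, and 0 lowered, with a median of -0.22, against 1.78% raised and 0.792% lowered over all tested genes. Both reached 1 TPM only in the 42 and 50 h libraries, so they too entered the test through the group where they were high. NODAL, the ligand on which EOMES and MIXL1 depend in the embryo, went from 0.572 and 0.449 TPM in the 34 h pair to 8.32 and 7.84 TPM by 42 h, 2.10 and 1.16 TPM by 50 h, and 0.417 and 0.361 TPM by 72 h. Its rise was 2.59 ± 0.25 (limma adjusted p 0.00124), and its change of -1.81 from 42 to 50 h missed the threshold (adjusted p 0.0511). LHX1, a homeobox gene of the anterior streak, rose by 1.52 ± 0.27 at 42 h (limma adjusted p 0.0236) and fell by 1.07 between 50 and 72 h (adjusted p 0.0498). The rise was lost without any 1 of the 34 and 42 h libraries (0.0809 to 0.168), and the fall without any 1 of the 8 (0.0662 to 0.201) and with the replicate block (0.0674). Like EOMES, both had their highest mean at 42 h. At 72 h against 34 h 7 of the 11 were lowered and 2 raised, against 11.3% and 12.7% of all tested genes, the raised ones being WNT3 (2.26) and APLNR (1.74). APLNR reached 1 TPM at 72 h only, and GDF3, 1 of the 7 lowered, at 34 h only, so both entered the test through the group where they were high. WNT3 reached 1 TPM only from 42 h on. Among the lowered, PDGFRA reached it only at 34 and 42 h, and FOXA2 only at 34, 42 and 50 h. The filter thus partly fixed the direction of these as well. The number lowered was 4 without replicate 2 at 34 h, where FOXH1, GDF3 and PDGFRA were no longer called, and 5 to 7 without another library. TDGF1, the Nodal co-receptor, fell by 7.17 and FOXA2, an endoderm and floor plate factor, by 2.99. The endoderm factor SOX17 was listed at 0 in all libraries.

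Of 15 presomitic and somite genes 6 were tested. At 42 h LFNG, a Notch modifier of the somite clock, fell by 1.16 (limma adjusted p 0.00322), and 0 of the 6 passed as raised, against 0.792% and 1.78% of all tested genes, so that a count of 0 among so few genes says little. The median was 0.04. ALDH1A2, which makes retinoic acid, is given after its values were seen: it had 0.121 and 0.581 TPM in the 34 h pair, 1.56 and 2.13 TPM in the 42 h pair, 1.14 and 4.004 TPM in the 50 h pair, and 0.312 and 0.313 TPM in the 72 h pair. Its groups at 42 and 50 h lay above the others, and its change of 1.09 ± 0.40 at 42 h did not pass (limma adjusted p 0.274, unadjusted 0.0271). PCDH8, a protocadherin, and PAX3, a factor of somites and of the dorsal neural tube, rose between 50 and 72 h by 2.04 and 1.76 (limma adjusted p 0.00234 and 0.00628). PAX3 reached 1 TPM only in the 72 h libraries, which put it in the test, and its call was lost without replicate 1 at 72 h (0.0654). The clock gene HES7, the segment genes RIPPLY1 and RIPPLY2 and the somite gene MEOX1 did not pass the filter.

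**Figure D3:**
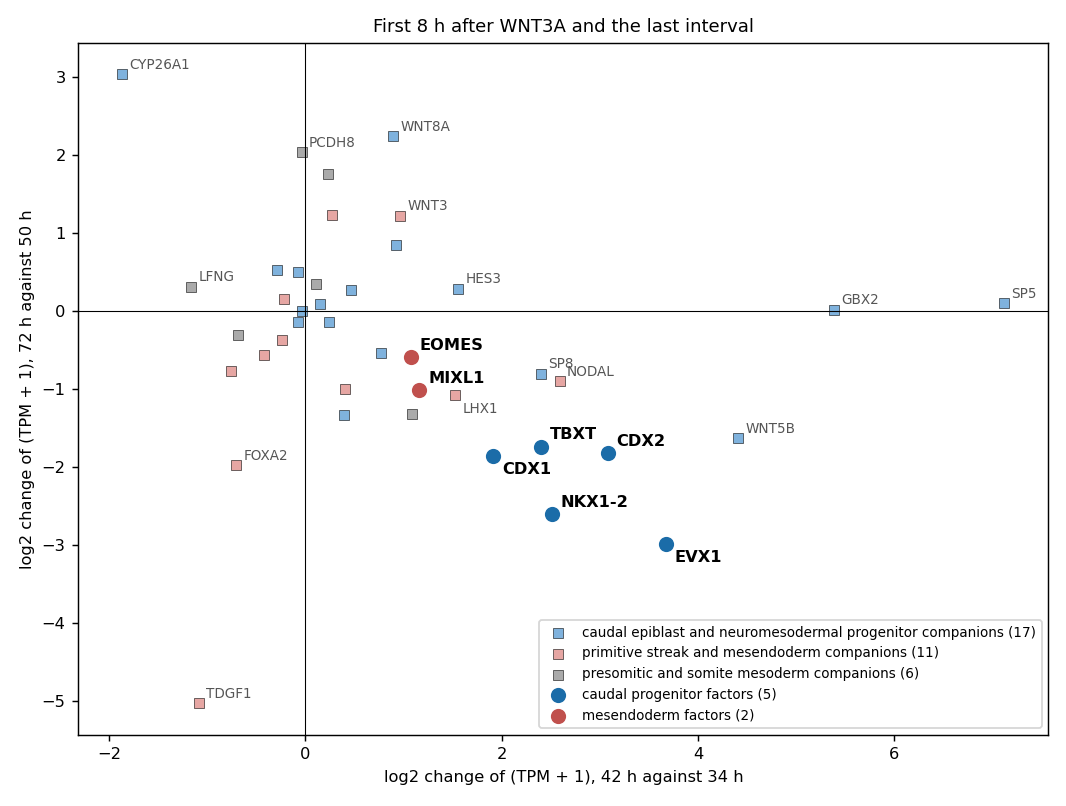
Log2 change of (TPM + 1) from 34 to 42 h (horizontal axis) against that from 50 to 72 h (vertical axis), 2 intervals with no library in common, for the 7 tested genes (circles) and the tested genes of 3 lists (squares, counts in the key). The 5 caudal factors sit at the lower right with a rise and a fall, SP5 and GBX2 sit at the right near 0 on the vertical axis, and CYP26A1 sits at the upper left.

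CDX2, EOMES and MIXL1 are also expressed outside the streak, so markers of other cell types were read beside them. Of 9 trophoblast and amnion markers 2 passed the filter, TFAP2C and KRT7. The sum of all 9 was 52.3 to 54.4 TPM at 34 h, 34.1 to 40.4 TPM at 42 h, 31.6 to 35.6 TPM by 50 h and 15.0 to 15.3 TPM at 72 h, and KRT7 alone had means of 37.8 TPM at 34 h and 6.22 TPM at 72 h. GATA3 was listed at 0 in all libraries from 42 h on. HAND1, which is also on the streak list, was listed at 0 in the 34 and 72 h pairs, with 0.833 and 0.778 TPM in the 42 h pair and 0.134 and 0.0593 TPM in the 50 h pair, so it was highest at 42 h, as EOMES was. ISL1, TFAP2A and GABRP had their highest values, 0.206, 0.795 and 1.63 TPM, each in 1 of the 42 h libraries. In the other 42 h library TFAP2A was at 0 and GABRP at 0.124 TPM. GATA2, GATA3, VTCN1, TFAP2C and KRT7 had their highest values at 34 h. The part of such cells in the values of CDX2 and EOMES was not tested. Of 6 hindgut and intestinal markers 1 passed, VIL1. The list summed to 30.3 to 48.0 TPM at 34 h, 31.2 to 42.7 TPM at 42 h, 24.6 to 36.9 TPM by 50 h and 2.78 to 5.66 TPM at 72 h, and CDH17 was listed at 0 from 42 h on. Of 5 lateral and cardiac mesoderm markers 1 passed, MYL7. That list summed to 3.10 to 6.32 TPM at 34 h, 7.51 to 11.985 TPM at 42 h, 8.43 to 8.50 TPM by 50 h and 0.560 to 2.53 TPM at 72 h, so it was higher at 42 and 50 h, as the caudal factors were. MYL7 made up most of these sums. Its changes of 0.85 ± 0.43 at 42 h and 0.75 ± 0.43 at 50 h against 34 h did not pass (limma adjusted p 0.449 and 0.386). Its change from 50 to 72 h, -2.02 ± 0.43, passed (limma adjusted p 0.0284), a call kept under 12 of 19 alternatives. In this list HAND2 and TBX5 were listed at 0 in all libraries. Below the filter, NKX2-5 was at 0 in the 34 h pair, 0.535 and 0.270 TPM in the 42 h pair, 0.348 and 0.131 TPM in the 50 h pair, and 0.0643 and 0.131 TPM in the 72 h pair. GATA4 had its highest value, 0.356 TPM, in a 42 h library and was at 0 in the 72 h pair, so both were highest at 42 h, and the part of such cells in the result was not tested. Of 5 notochord and node markers 3 passed, CHRD, NOG and FOXJ1, and the list summed to 15.6 to 17.5 TPM at 34 h, 7.90 to 7.96 TPM at 42 h, 6.66 to 8.68 TPM by 50 h and 14.9 to 16.6 TPM at 72 h. Within it FOXJ1 was lowered by 72 h (-2.67, from a mean of 14.8 to 1.49 TPM), and CHRD (2.52, from 1.22 to 11.8 TPM) and NOG (1.63) were raised. NOG reached 1 TPM at 72 h only. Of 4 blood and endothelial markers 0 passed.

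The genes whose course was most like that of TBXT were sought by the Pearson correlation of log2(TPM + 1) over the 8 libraries, among 2301 other genes with a range of at least 1 between time point means. For TBXT they were GCNT1 (0.989), ATOH8 (0.988), FGF18 (0.985), CDX1 (0.983) and F2RL1 (0.983). Mean TPM of FGF18, an FGF ligand, was 0.549, 7.12, 5.04 and 1.09 at the 4 time points. For NKX1-2 they were SALL3 (0.986), CDX1 (0.986), AC007906.2 (0.986), EVX1 (0.983) and PLA2G7 (0.981). For CDX1 they were PLA2G7 (0.989), EVX1 (0.988), F2RL1 (0.987), NKX1-2 (0.986) and TBXT (0.983). The points share time point and batch, and the correlations are a description of 8 libraries. CDX1 and EVX1 were thus among the genes closest to NKX1-2 over all genes compared, and TBXT and CDX1 were each among the 5 closest to the other.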

How the data were processed

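Poly(A) RNA of 8 libraries was sequenced as paired ends. The authors deposited 1 TPM value for each Ensembl gene and library, and each column summed to 1000000. Per the submitters' processing notes Salmon 1.9.0 and GRCh38 were used; the annotation and any filter are not given in the sources used here. Rows with the same symbol were summed (37951 rows, 35940 symbols). Depth is unknown, so no counting interval was computed.

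For the 14908 genes that reached 1 TPM in 2 or more libraries, log2(TPM + 1) was modelled by time point with limma 3.58.1 in R 4.3.3 and a variance trend. All 8 libraries entered, leaving 4 residual degrees of freedom. Adjusted p-values are two-sided Benjamini-Hochberg values over all tested genes, called under 0.05. The fit was tested on simulated data. An exact permutation test of 2 against 2 cannot go below 0.333, so none was run.

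Members and lists were chosen with earlier results of these data known. All 10 members are named; of the lists, genes called in a pairwise comparison, at most 6 per list by size, and markers needed beside a result. SOX2, SOX17, ALDH1A2, genes whose call decided a count, and the presomitic genes under the filter were named beside this rule. The replicate number pairs libraries because the labels call it a batch. Differences between replicates correlated across genes at 0.0949 (34 and 42 h), 0.195 (34 and 50 h) and 0.142 (42 and 50 h), and at -0.0445, -0.0779 and -0.104 between 72 h and 34, 42 and 50 h. Locations are from GENCODE 29 (GRCh38), matched by Ensembl identifier. Upstream windows are from RefSeq (GRCh38.p14).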

Additional observations from a re-analysis of the deposited data

How the results depend on the processing

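Counts of the 7 tested genes that changed were recomputed under 18 or 19 alternatives for each comparison. A mean of at least 5 TPM left TBXT and NKX1-2 to test, and gave 2 changed genes at 42 h and 50 h against 34 h, at 72 h against 50 h and for the middle against the end points. Requiring a log2 change above 1 (limma treat) also gave 2 in each of these 4 comparisons, NKX1-2 and EVX1. At 72 h against 34 h a pseudocount of 0.1 gave 1, CDX2. Other alternatives gave higher counts. At 42 h against 34 h all 7 were called without the filter and also without a mean trend in the variance. A pseudocount of 0.1 or leaving out mitochondrial genes gave 6 there, with MIXL1 added. At 72 h against 50 h the highest count was 7. Leaving out 1 library at a time gave 5 to 5 genes at 42 h and 5 to 6 at 50 h against 34 h, 0 to 1 at 72 h against 34 h, 0 to 0 at 50 h against 42 h, 3 to 5 at 72 h against 50 h and 5 to 6 for the middle against the end points. The share of all tested genes called moved as well: with 1 library left out it was 0.899% to 1.72% raised and 0.181% to 0.778% lowered at 42 h against 34 h, 1.60% to 3.04% raised and 0.999% to 2.29% lowered at 50 h against 34 h, 6.10% to 12.9% raised and 6.43% to 11.4% lowered at 72 h against 34 h, 0.644% to 2.48% raised and 1.48% to 3.65% lowered at 72 h against 50 h, 0.00671% to 0.0335% raised and 0% to 0.0201% lowered at 50 h against 42 h, and 1.34% to 2.13% raised for the middle against the end points. A time point left with 1 library is assumed to vary like the others.

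Of 761 single values, 687 kept direction and side of the threshold, 56 lost a call, 11 gained one and 7 changed sign. The changes of sign were all of uncalled values with 1 library left out: NKX1-2 at 72 h against 34 h ranged from -0.55 to 0.10, and at 50 h against 42 h TBXT ranged from -0.44 to 0.033, CDX1 from -0.064 to 0.12 and MIXL1 from -0.011 to 0.19. With the replicate block 5 genes changed at 42 h and 6 at 50 h against 34 h, 5 at 72 h against 50 h and 6 for the middle against the end points; it ended the calls of MIXL1 and EOMES given above and no other of 42 values. Low TPM of CDX4, TBX6, MIXL1 and EOMES limit what can be read from them, since their depth is unknown.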
